A study of Homo sapiens with 4 samples.

Results

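The pericentromeres of 9 human autosomes were examined for contacts with the ribosomal RNA genes in the human erythroleukemia line K562, with and without hemin. Members were all contact regions whose midpoint lay in 1 of 9 stretches of the hg38 genome, namely chr1:121500000-145500000, chr2:86000000-98000000, chr4:48500000-52500000, chr5:45500000-50500000, chr7:56000000-64000000, chr9:38500000-68500000, chr10:38000000-43000000, chr16:31500000-47000000 and chr17:21500000-27500000. The stretches are defined by position, and no read count enters a region's membership, but they were chosen with earlier results of these data known. They held 24466 of the 197703 regions of the 4 libraries, of which 7806 and 7574 came from untreated and 4289 and 4797 from hemin-treated cells. The study compared 2 libraries of untreated K562 cells with 2 libraries of K562 cells that had grown with hemin, an inducer of erythroid differentiation, at 50 µM over 108 h. Every library came from this 1 line. The study's methods call the 2 libraries of each group biological replicates, but the labels do not say that they came from separate cultures. The p-values below therefore measure the spread between these libraries only.

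In the 4C assay, cross-linked chromatin was cut with EcoRI, which cuts at GAATTC, ligated, cut again with FaeI at CATG and ligated into circles, and the DNA joined to a chosen viewpoint was sequenced. Here the viewpoint lay in the intergenic spacer of the rDNA, whose tandem copies sit on the short arms of the acrocentric chromosomes 13, 14, 15, 21 and 22 and form the nucleoli. Centromeres are built of alpha satellite, a tandem repeat that carries the CENP-B box bound by the centromere protein CENP-B, and the flanking heterochromatin of several chromosomes holds classical satellites made of GGAAT units. Such heterochromatin is often found around the nucleolus in interphase nuclei. In hg38 the alpha satellite arrays are models of each chromosome's array, so a position within one is a position in the model. A read that matches many copies equally well was placed on 1 of them by the aligner, and the methods name no mapping quality filter.

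The libraries held 31721628 and 34000240 reads from untreated cells and 19548906 and 20577487 from hemin-treated cells. A deposited region is a stretch of contacted sequence with its read count. A locus is the union of overlapping regions of the 4 libraries. Normalised reads are counts divided by the library's effective size, which edgeR's trimmed mean of M-values (TMM) gave over 100 kb bins of the whole genome, and brought to 1 common size.

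The most-read members and the commonest satellite sequences are printed first, because the results below turn on them. All are letters of the deposited regions, 5′ to 3′ on the plus strand of hg38, and capitals mark EcoRI sites. The first group comes from the chromosome 17 alpha satellite. The most-read locus of all stretches lay at chr17:26596388-26596489, and the locus at chr17:26884087-26884287 held the reverse complement of its first 94 bases without a difference. The locus at chr17:25788610-25788686, here the third and found after hemin only, differed from the first at 4 of 77 bases, A31G, T55C, T62C and T70C counted from the first base of the EcoRI site.
chr17:26596388-26596481, first locus: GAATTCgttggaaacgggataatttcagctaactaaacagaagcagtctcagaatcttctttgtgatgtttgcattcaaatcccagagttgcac
chr17:25788610-25788686, the third locus: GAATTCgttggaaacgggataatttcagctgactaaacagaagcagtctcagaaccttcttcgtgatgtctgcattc

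The second group shows alpha satellite sequences found at many contacted loci of their stretch, of which those of chromosomes 1 and 5 had fewer and that of chromosome 10 more reads after hemin. Over 67 compared bases, the sequence shared by chromosomes 1 and 5 and the chromosome 10 sequence were 85.1% identical, with 10 substitutions, C7T, C14A, T16C, C18T, G32A, T48G, T53C, A57C, C62T and A63T. The other chromosome 5 sequence differed from the shared one at 7 of the 67 bases.
chromosomes 1 and 5, shared: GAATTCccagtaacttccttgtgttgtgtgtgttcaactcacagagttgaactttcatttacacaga
chromosome 10: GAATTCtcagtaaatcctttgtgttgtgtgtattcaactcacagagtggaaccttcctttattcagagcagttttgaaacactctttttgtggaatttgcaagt
chromosome 5, other: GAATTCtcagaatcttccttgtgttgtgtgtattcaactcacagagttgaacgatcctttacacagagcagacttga

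The third group gives the most-read locus of 6 further stretches. The chromosome 1 and chromosome 10 loci consist of diverged GGAAT and ATTCC units, and the chromosome 16 locus begins with letters that are also found at the end of a viewpoint adapter listed in the study's methods, so that it resembles the rDNA spacer used as the viewpoint.
chr1:125183586-125183788: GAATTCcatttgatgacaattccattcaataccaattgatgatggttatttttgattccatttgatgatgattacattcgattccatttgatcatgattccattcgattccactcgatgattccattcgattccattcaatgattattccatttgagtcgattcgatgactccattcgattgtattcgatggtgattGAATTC
chr10:41856445-41856539: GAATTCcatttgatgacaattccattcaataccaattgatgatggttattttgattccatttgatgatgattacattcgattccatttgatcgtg
chr16:34156698-34156997: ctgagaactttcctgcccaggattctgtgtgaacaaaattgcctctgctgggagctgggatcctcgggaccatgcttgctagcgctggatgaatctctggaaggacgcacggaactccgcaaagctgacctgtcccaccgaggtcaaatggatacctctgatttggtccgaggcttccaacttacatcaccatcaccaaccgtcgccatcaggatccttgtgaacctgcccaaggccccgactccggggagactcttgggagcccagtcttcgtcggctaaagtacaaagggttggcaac
chr5:46434498-46434582: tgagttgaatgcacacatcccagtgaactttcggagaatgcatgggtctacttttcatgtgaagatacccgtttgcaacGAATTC
chr7:57411426-57411480: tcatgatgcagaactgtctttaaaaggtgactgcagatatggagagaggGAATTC
chr2:97180744-97180864: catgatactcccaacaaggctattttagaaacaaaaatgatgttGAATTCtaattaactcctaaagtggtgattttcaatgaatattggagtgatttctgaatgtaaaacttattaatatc

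The pericentromeric stretches were densely covered with contact regions, and more so before hemin. They made up 2.46% of the known sequence outside the acrocentric chromosomes (63.67 Mb after gaps), yet held 9.55% and 9.41% of the reads mapped outside those chromosomes before hemin and 8.35% and 8.33% after it. Both untreated libraries lay above both hemin libraries. The means were 9.48 ± 0.102% and 8.34 ± 0.0184% (SD, n = 2 each; two-sided exact permutation test, p = 0.333, the smallest value that 2 against 2 libraries can give). Per Mb of known sequence the stretches had 4.18 and 4.11 times the reads of the rest of these chromosomes before hemin and 3.61 and 3.60 times after it. The excess was larger in regions than in reads, at 10.1 and 9.90 times the rest's density before hemin and 5.204 and 5.56 times after it.

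The share of regions fell by more than the share of reads. Reads of 1 repeated sequence can be placed on several copies, so regions need not be separate contacts. The share of all regions outside the acrocentric chromosomes that lay in the stretches was 20.2 ± 0.241% in untreated and 11.96 ± 0.487% in hemin libraries (SD, n = 2; exact permutation p = 0.333). Because the untreated libraries were deeper, each library was also thinned to the read total of the smallest one, which left 6839 and 6494 regions before hemin and 4289 and 4727 after it. At equal depth the shares were 19.2 ± 0.351% and 11.9 ± 0.433%, so both untreated libraries remained above both hemin libraries. In either group 4 reads was the median of a member region. Regions of a single read made up 25.7 ± 0.169% of the members in untreated and 28.6 ± 1.02% in hemin libraries. In the rest outside the acrocentric chromosomes they made up 14.8 ± 0.155% and 15.3 ± 0.385%. Most members were copies of repeated sequence. Of the member regions long enough to hold 31 bases, 73.1 ± 0.0557% in untreated and 63.8 ± 1.45% in hemin libraries had central 31 bases with over 10 exact copies in hg38, against 26.6 ± 0.121% and 21.9 ± 0.519% elsewhere. An exact copy on an acrocentric chromosome existed for 39.3 ± 0.586% of untreated and 27.4 ± 0.792% of hemin member regions, so part of the signal assigned to these stretches could equally have been placed on a chromosome that carries rDNA; its part in the results was not tested.

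Reads in 6 of the 9 stretches fell after hemin and those in the other 3 did not pass the test. The 6 were the stretches of chromosomes 1, 4, 5, 10, 16 and 17. None rose. The 9 sums were tested with all 100 kb bins of the genome in edgeR's quasi-likelihood test, and p-values were adjusted over all of them by Benjamini-Hochberg. The median log2 fold change of the 16596 bins tested was 0.37, and that of the 518 tested bins inside the stretches was -0.46.

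The chromosome 5 and chromosome 4 stretches fell most. The chromosome 5 stretch had 28891 and 22915 reads in untreated and 7192 and 8017 in hemin libraries, and was 2.42-fold higher in untreated cells after normalisation (log2 fold change -1.27 ± 0.170 SE, edgeR adjusted p = 0.00654). Its 2 untreated libraries differed from each other by a larger part of their mean than those of any other stretch, but both stood far above both hemin libraries. Without hemin replicate 1 its adjusted p was 0.0532. The chromosome 4 stretch had 95110 and 97615 reads before and 30115 and 32534 after hemin, 2.18-fold higher in untreated cells (log2 fold change -1.12 ± 0.0294, edgeR adjusted p = 0.00096). All 4 libraries of chromosome 4 lay close to their group mean. Without the most-read locus of each, the log2 ratio was -0.98 for chromosome 5 and -1.15 for chromosome 4, so the order of these stretches turned.

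Chromosomes 1 and 16 fell by less and with little spread. The chromosome 1 stretch had 121411 and 126039 reads before and 59358 and 64008 after hemin, a log2 fold change of -0.51 ± 0.0257 (edgeR adjusted p = 0.00103). The chromosome 16 stretch had 130460 and 133136 before and 73402 and 76896 after hemin, a log2 fold change of -0.31 ± 0.0185 (edgeR adjusted p = 0.00123). Its log2 ratio was -0.24 without its most-read locus and -0.07 without its 2 most-read loci, and its log2 fold change was -0.10 (adjusted p = 0.0491) when total reads set the scale. In both, the normalised untreated values stood clear of the hemin values, and the direction was the same with median-of-ratios scaling and with total reads as the scale. Restricted to regions whose central bases occur once in hg38, however, the chromosome 1 stretch had a log2 fold change of 0.13 and no longer passed (adjusted p = 0.119). With the same restriction the chromosome 16 stretch had -0.614 and did not pass either (edgeR adjusted p = 0.364).

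Chromosomes 10 and 17 were near the threshold. The chromosome 10 stretch had 56406 and 56656 reads before and 33323 and 30120 after hemin (log2 fold change -0.33 ± 0.0837, edgeR adjusted p = 0.0335). Its call was lost without either untreated library (adjusted p = 0.217 and 0.143) and with median-of-ratios scaling (0.138). The chromosome 17 stretch had 189833 and 215547 before and 125933 and 129298 after hemin, the highest level of all (log2 fold change -0.17 ± 0.0483, edgeR adjusted p = 0.0474). It did not pass with DESeq2 (adjusted p = 0.362), nor in edgeR with median-of-ratios scaling (0.396) or without the filter on low counts (0.0616). Its call was lost without untreated replicate 2, hemin replicate 1 or hemin replicate 2 (adjusted p = 0.0705, 0.156 and 0.173), and its log2 fold change was 0.05 when total reads set the scale.

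The stretches of chromosomes 2, 7 and 9 did not pass. The chromosome 9 stretch had 129831 and 135095 reads before and 83236 and 92633 after hemin (log2 fold change -0.09 ± 0.0426, edgeR adjusted p = 0.130). The chromosome 7 stretch had 19901 and 21478 before and 11861 and 14085 after hemin (-0.18 ± 0.0832, adjusted p = 0.138). The chromosome 2 stretch, the least changed, had 50678 and 53702 before and 34759 and 37903 after hemin (-0.02 ± 0.0331, adjusted p = 0.549). Without hemin replicate 2 the chromosome 7 and 9 stretches passed as lower (log2 fold changes -0.28 and -0.14, adjusted p = 0.0253 and 0.0172), and with median-of-ratios scaling chromosome 2 passed as higher (0.08, adjusted p = 0.0182).

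**Figure D1:**
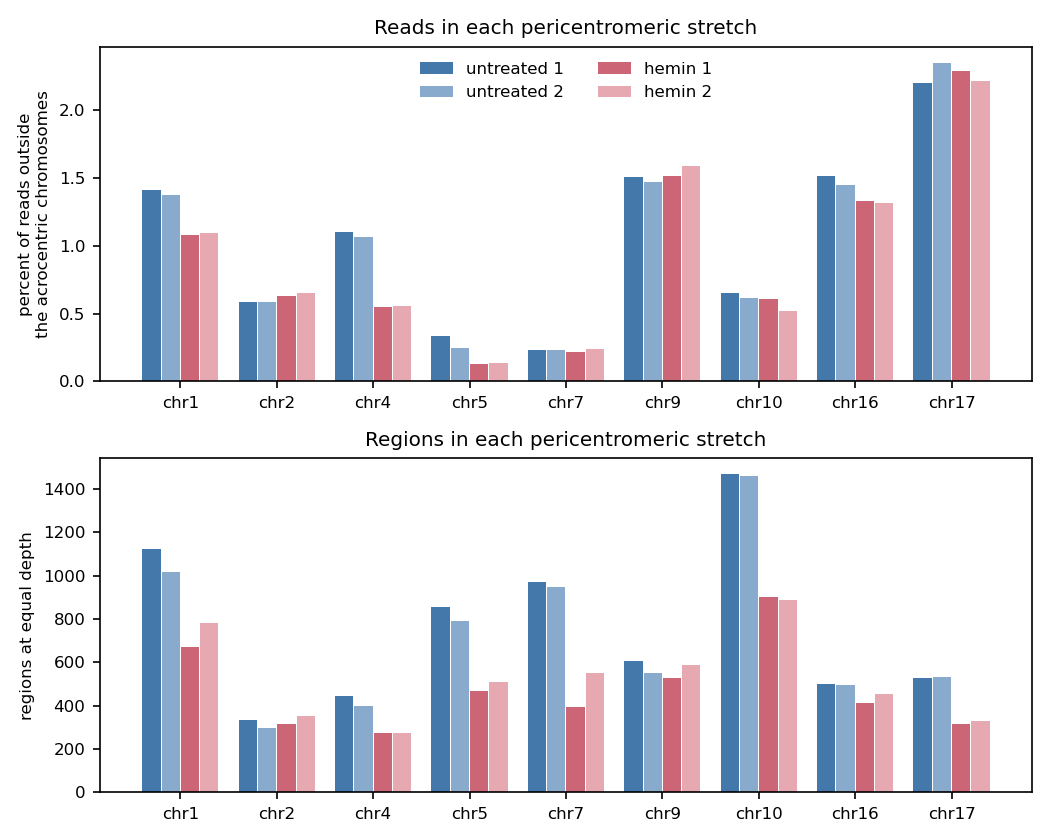
Each pericentromeric stretch in each library. Bars in the upper panel give the percent of reads mapped outside the acrocentric chromosomes, and bars in the lower panel give the number of contact regions after thinning every library to the same depth; blue stands for untreated and red for hemin libraries, 1 bar per library. Both hemin bars are lower than both untreated bars for chromosomes 1, 4, 5, 10 and 16 in the upper panel, and the chromosome 10 stretch has the most regions, 1470 and 1460 against 903 and 888.

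Levels per Mb of known sequence differed widely among the stretches. In untreated cells the order was chromosome 17 with 29227 normalised reads per Mb, then chromosome 4 with 21615, chromosome 1 with 17517, chromosome 16 with 15532, chromosome 10 with 10281, chromosome 9 with 8271, chromosome 5 with 4506, chromosome 2 with 4228 and chromosome 7 with 2260. In hemin-treated cells the chromosome 4 stretch stood at 9927, below the 12340 of chromosome 1 and the 12514 of chromosome 16. Chromosomes 5 and 2, whose untreated levels lay within the spread of the chromosome 5 libraries, stood at 1863 and 4160 after hemin.

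The number of regions at equal depth was lower in both hemin libraries than in both untreated libraries for the 6 stretches whose reads fell, and for chromosome 7 as well. On chromosome 7 the thinned libraries had 973 and 947 regions before hemin and 396 and 550 after it, although the read total of the stretch did not pass the test. On chromosome 17 they had 528 and 535 before and 315 and 328 after hemin. On chromosomes 2 and 9 the groups overlapped, with 334 and 299 against 318 and 353 regions on chromosome 2 and 605 and 551 against 528 and 587 on chromosome 9. The chromosome 2 and chromosome 9 stretches also held the most sequence outside periodic and GGAAT-rich windows, 8.16 and 10.6 Mb.

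A few loci carried much of each stretch. The identical pair on chromosome 17 held 66.8% and 61.7% of that stretch's reads before and 69.7% and 70.7% after hemin. The first of the pair had 63429 and 66603 reads before and 43960 and 45893 after hemin, and after normalisation its groups did not differ by the test (log2 fold change -0.03 ± 0.0146, edgeR adjusted p = 0.0746). The second had 63416 and 66398 before and 43767 and 45475 after hemin (-0.04 ± 0.0141, adjusted p = 0.0377). As the pair shares its letters, reads of this sequence could have been placed on either locus, so the 2 counts need not be independent. What part this has in their near equality was not tested. Without the pair, the log2 ratio of the chromosome 17 stretch was -0.43 in place of -0.17. The second locus and others beside it were singled out here after their values were seen.

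Other copies of the same chromosome 17 repeat went different ways. The third locus, 4 substitutions away from the first, had no read in either untreated library and 6485 and 6788 reads after hemin, at least 3125-fold higher against a floor of 3 reads per library. A further locus at chr17:26625582-26625779, which has no EcoRI site within 100 bases, had 7491 and 8110 reads before and 1045 and 1063 after hemin (log2 fold change -2.39 ± 0.0491, edgeR adjusted p = 7.35e-06). The third locus was thus present only after hemin and the further one was much lower after it, while the first pair stayed near its untreated level. None of these loci overlapped an annotated gene. The third and the further locus were chosen after their values were seen.

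On chromosome 16, 1 locus held about as large a part. The locus at chr16:34156694-34157142 had 52328 and 55192 reads before and 27725 and 29137 after hemin, which was 40.1% and 41.5% of the stretch before and 37.8% and 37.9% after it. It fell by 0.42 on the log2 scale (SE 0.0180, edgeR adjusted p = 1.87e-05). It lies 1443 bases from LINC00273, a long noncoding RNA gene, has a single exact copy of its central bases, and has no EcoRI site within 100 bases. Over 455 bases it was 90.1% identical to sequence 43817 bases away from the most-read region of the whole data set on chromosome 21, where the viewpoint's own rDNA lies, and its first letters are those of the viewpoint adapter described above. How far this resemblance sets its reads was not tested.

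On chromosome 1 the most-read locus, chr1:125183544-125183861, lies 727 bases from an assembly gap and held 26.6% and 26.9% of the stretch before and 34.2% and 33.4% after hemin. Its reads numbered 32238 and 33939 before and 20290 and 21388 after hemin, a small fall by the test (log2 fold change -0.17 ± 0.0215, edgeR adjusted p = 0.00095) that became 0.04 when total reads set the scale. Its share of the stretch was higher after hemin because the remainder fell more, with a log2 ratio of -0.65 without this locus. A neighbour with nearly the same first letters at chr1:125178723-125178850, singled out after its values were seen, had 8536 and 8836 reads before and 5358 and 5809 after hemin (-0.14 ± 0.0410, adjusted p = 0.0231). The chromosome 10 locus with a nearly identical beginning, chr10:41856445-41856539, had 6712 and 6976 before and 1277 and 1381 after hemin (-1.87 ± 0.05001, adjusted p = 7.35e-06).

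The leading loci of chromosomes 5, 7 and 2 were smaller. On chromosome 5 the locus at chr5:46434494-46434582, an alpha satellite copy with a CENP-B box, had 4548 and 4949 reads before and 0 and 2 after hemin (edgeR adjusted p = 4.97e-05). With so few hemin reads the size of this fall is uncertain, and its fitted log2 fold change of -11.6 became -10.7 and -15.1 without hemin replicate 1 and 2. On chromosome 7 the opposite was seen at chr7:57411426-57411480, in an exon of the noncoding RNA gene MIR3147HG, with no read before and 4042 and 4220 after hemin, at least 1945.5-fold higher. Without that locus the chromosome 7 stretch had a log2 ratio of -0.73 in place of -0.18. On chromosome 2 the locus at chr2:97180742-97180864, in an intron of ANKRD36, had 4766 and 5361 before and 3452 and 3697 after hemin (0.00 ± 0.0561, adjusted p = 0.971). This leading locus did not pass, as its stretch did not.

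**Figure D2:**
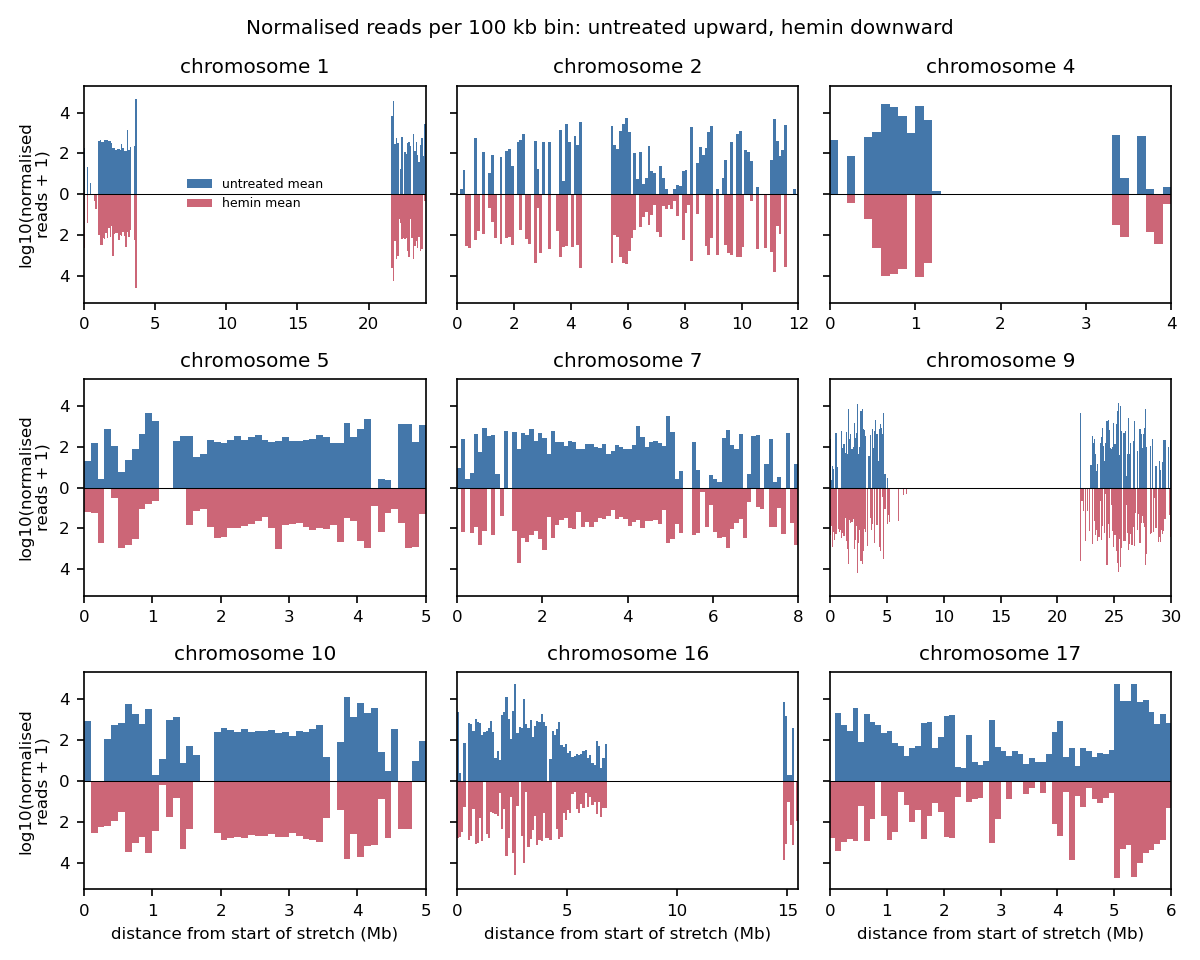
Mean normalised reads of each 100 kb bin along the 9 stretches, on a log10(reads + 1) scale, with untreated means drawn upward in blue and hemin means downward in red against the distance from the start of each stretch in Mb. Blank spans are assembly gaps or bins without reads. The chromosome 5, 7 and 10 arrays form plateaus in which the untreated side is higher on chromosomes 5 and 7 and the hemin side is higher on chromosome 10, and the tall bins near the right end of chromosome 17 hold the identical pair.

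The stretches were described by the sequence of the genome in 10 kb windows. A window was called periodic where a share of at least 0.4 of the bases equalled the base 1 repeat length further on, at the best repeat length of 150 to 200 bases, and GGAAT-rich where GGAAT and ATTCC covered at least 10% of it. Windows made up mostly of gap were left out of the following shares, and the rest means the genome outside the stretches and the acrocentric chromosomes. Periodic windows made up 43.5% of the windows in the stretches and 1.32% of those in the rest. The known unit of alpha satellite, 171 bases, was the best length in 91.2% of the periodic windows of the stretches. GGAAT-rich windows made up 2.62% of the windows in the stretches and 0.0361% of those in the rest. The periodic threshold of 0.4 was chosen after the arrays were seen; with 0.5 only the least diverged arrays count as periodic.

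At the threshold of 0.4, alpha satellite windows held most of the member regions but a much smaller part of the reads. Periodic windows held 61.8 ± 0.352% of the member regions in untreated and 53.8 ± 1.74% in hemin libraries (17.5 ± 0.511% and 12.8 ± 1.68% at the stricter threshold), and 25.3 ± 0.751% and 28.3 ± 0.239% of the member reads (20.9 ± 0.901% and 21.9 ± 0.149%). The reads of the periodic windows include those of the identical chromosome 17 pair. At equal depth these windows held 4134 and 3942 regions before and 2255 and 2595 after hemin. GGAAT-rich windows held 989 and 959 regions at equal depth before and 544 and 554 after hemin, with 18.7 ± 0.0206% and 15.4 ± 0.363% of the reads. The remaining windows with known sequence held 1654 and 1533 regions before and 1445 and 1541 after hemin, so here the groups overlapped. This division turned with the threshold. At 0.5, periodic windows held 1096 and 1088 regions at equal depth before and 496 and 657 after hemin, and the remaining windows held 4692 and 4387 before and 3204 and 3479 after it, so most of the difference then lay outside the periodic windows. The remaining windows held 66.7 ± 0.748% and 74.1 ± 0.877% of the member regions at 0.5. GGAAT-rich windows do not depend on this threshold.

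**Figure D3:**
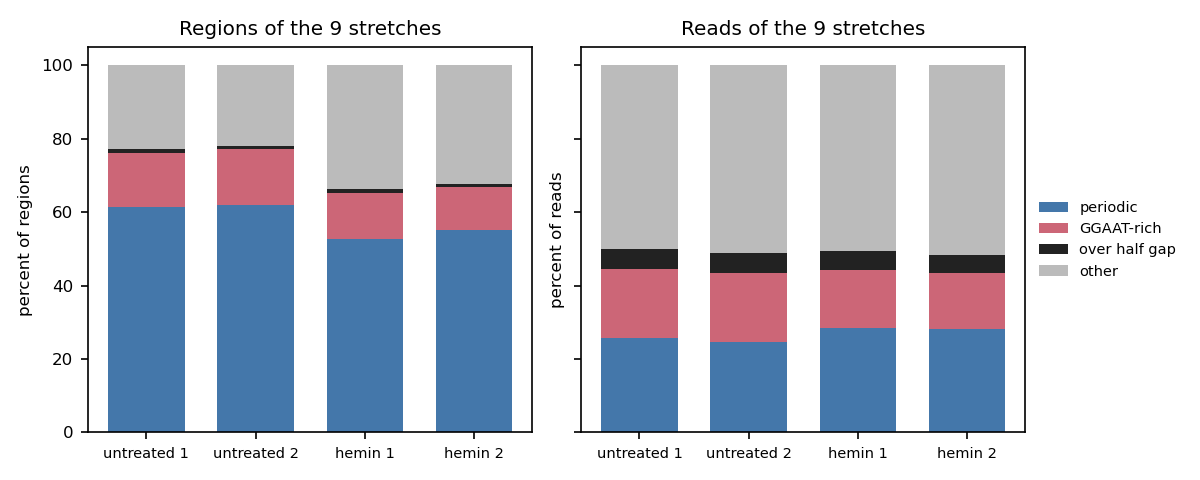
Composition of the member regions (left, percent of regions) and of their reads (right, percent of reads) in each library by class of the 10 kb window: periodic in blue, GGAAT-rich in red, windows made up mostly of gap in black and all others in grey. Other windows hold 22.8% and 21.98% of the regions before and 33.7% and 32.4% after hemin, while they hold 50.0% and 51.1% of the reads before and 50.5% and 51.6% after it. The periodic threshold is 0.4, and the periodic share of reads is higher and the GGAAT-rich share lower in both hemin libraries.

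The CENP-B box, searched as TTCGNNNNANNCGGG on both strands, overlaps the EcoRI site in the chromosome 17 repeat, where the last letters of the site begin the box. Regions with a box numbered 1439 and 1454 in untreated and 465 and 521 in hemin libraries, which was 18.8 ± 0.539% and 10.9 ± 0.0136% of the member regions. Outside the stretches and the acrocentric chromosomes the shares were 1.81 ± 0.0257% and 2.77 ± 0.290%. In reads the order was turned, with 18.8 ± 0.294% of the member reads before and 21.96 ± 0.328% after hemin in box regions. Most of these reads lay in the identical chromosome 17 pair. Of 822521 member reads in untreated replicate 1 and 459179 in hemin replicate 1, its first locus held 63429 and 43960. Its second locus held 63416 and 43767. The third chromosome 17 locus, found after hemin only, also has a box. Shares without these loci were not calculated, so the order in reads is not that of box regions in general. The match is a description of the letters and says nothing of binding.

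By stretch, the classes moved apart. On chromosome 10 the GGAAT-rich windows had 28199 and 30086 reads before and 13023 and 10736 after hemin (log2 ratio of the normalised means -0.79), while the periodic windows had 9986 and 6907 before and 10024 and 10056 after hemin (0.74). The 2 classes of chromosome 10 thus lay on opposite sides. On chromosome 5 the periodic windows had 22168 and 15277 reads before and 3983 and 4532 after hemin (-1.65). On chromosome 17 the GGAAT-rich windows had 7693 and 7241 before and 1548 and 1369 after hemin (-1.86), while its periodic windows, which hold the identical pair, had a log2 ratio of -0.05. Among the GGAAT-rich classes with at least 100 reads in each library, those of chromosomes 1, 2, 4, 10 and 17 were lower after hemin in the mean, with log2 ratios of -0.78, -0.20, -1.21, -0.79 and -1.86, and those of chromosomes 16 and 7 were higher, with 0.22 and 1.88. No test was run on these sums.

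Single satellite sequences also went different ways. For each stretch the region sequence found at the most contacted loci was taken, once among all regions and once among regions of at least 10 reads, and the loci that held its central 31 bases were counted. The sequence shared by chromosomes 1 and 5 occurs at 747 places in the chromosome 1 stretch and 790 in the chromosome 5 stretch, commonly 1020 bases apart. It also occurs at 748 places on chromosome 19, 3 each on the acrocentric chromosomes 13, 14, 21 and 22, and 1 on chromosome 7. On chromosome 1, 382 loci held it, with 3581 and 3579 reads in sum before and 94 and 127 after hemin, a log2 ratio of -4.52. On chromosome 5, 333 loci held it, with 2263 and 2372 before and 24 and 17 after hemin, a log2 ratio of -6.32. Single copies had few reads, with medians of 3 to 5 reads per locus before hemin and 0 after it on both chromosomes.

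On chromosome 10 the related sequence was higher after hemin. It occurs at 1184 places, all on chromosome 10, again commonly 1020 bases apart. The 623 loci that held it had 1999 and 2045 reads before and 5794 and 5976 after hemin, a log2 ratio of 2.04. It made up 3.54% and 3.61% of the chromosome 10 stretch before and 17.4% and 19.8% after hemin. Its median locus had 2 reads in each untreated and 6 in each hemin library. As the copies share these letters, reads from any of them could have been placed on the others, so the counts do not tell how many copies took part. This sequence was the commonest on chromosome 10 only among regions of at least 10 reads. The lowest hemin sum was above the highest untreated sum, and the reverse held for the sequence of chromosomes 1 and 5.

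Further satellite sequences were lower after hemin. The other chromosome 5 sequence, at 1713 places there and 6132 in all on 5 chromosomes, had 1464 and 1527 reads over 220 loci before and 547 and 655 after hemin (log2 ratio -0.82). A chromosome 7 sequence with 4565 places had 2203 and 2291 reads over 709 loci before and 611 and 658 after hemin (-1.33). A further chromosome 10 sequence, at 2355 places, had 1744 and 1881 reads over 583 loci before and 205 and 228 after hemin (-2.57), so that 2 sequences of the same chromosome lay on opposite sides. In the remaining stretches the log2 ratios of such sequences were -2.10 on chromosome 2, 2.18 for a GGAAT sequence of chromosome 4, -0.14 and -1.96 on chromosome 16, and -1.08 and 0.24 on chromosome 17. The other chromosome 4 sequence, with 681 and 665 reads before hemin, and that of chromosome 9, with 441 and 546, had none after it. The choice of sequences rests on the contacted loci and, in the second list, on read counts, so it is not independent of the change, and the ratios carry no test. The chromosome 7 sequence and the further chromosome 10 sequence are printed here because they have the most places in their stretch among the sequences chosen.
chromosome 7: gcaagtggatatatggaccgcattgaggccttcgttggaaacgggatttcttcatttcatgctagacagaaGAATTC
chromosome 10, further: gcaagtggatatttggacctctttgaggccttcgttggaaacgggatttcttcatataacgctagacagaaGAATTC

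The stretches held a small set of loci found in every library and a large set found in a single one. Of 14969 loci in the stretches, 864 (5.77%) had reads in all 4 libraries, against 2.69% of 74537 loci elsewhere outside the acrocentric chromosomes. These shared loci held 70.5% and 71.5% of the stretches' reads before and 72.9% and 72.4% after hemin, where the shared loci of the rest held 41.5% and 42.1% before and 34.4% and 33.5% after it. Loci found in both untreated libraries only numbered 3085 (20.6%) and loci in both hemin libraries only 1287 (8.60%). A further 8329 (55.6%) were seen in 1 library, against 39.7% elsewhere. Most reads thus lay in loci present in both groups, although these were few.

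Most strong loci had at least 1 read in every library, whatever their change. Of 169 loci with over 1000 reads in a library, 119 were present in all 4 libraries, 21 in both untreated libraries only and 5 in both hemin libraries only. Elsewhere 287 of 1539 strong loci were present in all 4, 978 in both untreated libraries only and 109 in both hemin libraries only. Chromosome 5 had none of its 5 strong loci in all 4 libraries, chromosome 7 none of 3 and chromosome 10 9 of 19. On chromosomes 5 and 7 the loci shared by all libraries held only 6.20% to 8.48% and 9.58% to 14.4% of the reads of a library.

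Loci were tested over the whole genome with the same edgeR fit. Of the 14969 loci in the stretches 2407 passed the filter on low counts, of which 875 (36.4%) were higher and 1150 (47.8%) lower after hemin at an adjusted p under 0.05. Over the whole genome, 47.3% of 42898 tested loci were higher and 48.0% lower. The share of lower loci was near that background and the share of higher loci was below it. In 1365 of the 2407 tested loci 1 group had no read, against 36880 of 42898 over the whole genome. Such a locus passed the filter only through the group where it was present. Without untreated replicate 1 or 2 the lower loci numbered 457 and 482, and without hemin replicate 1 or 2 the higher ones 528 and 521. Among 100 kb bins, 145 of 518 (28.0%) in the stretches were higher and 192 (37.1%) lower, against 44.8% and 37.9% of all 16596 bins.

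Chromosome 10 was the one stretch with more higher than lower loci, 298 and 83 of 434 tested. With the loci that hold the most repeated sequences left out, an alternative chosen after seeing the data, chromosome 10 had 68 higher and 77 lower of 174. The chromosome 10 array sequence alone gave 226 of the higher loci. Chromosome 5 had 31 higher and 120 lower of 176, chromosome 4 had 28 and 136 of 216, and chromosome 1 had 60 and 206 of 323, of which the sequence shared with chromosome 5 gave 73 of the lower loci. The counts were nearest to even on chromosome 2, with 97 higher and 104 lower of 234, and on chromosome 9, with 174 and 200 of 445. Chromosome 7 had 44 and 63 of 126, chromosome 16 had 98 and 133 of 261, and chromosome 17 had 45 and 105 of 192. By class, GGAAT-rich loci had 61 higher and 215 lower of 360, and periodic loci 342 and 298 of 755. Over the whole genome 47.3% of tested loci were higher and 48.0% lower. These class counts include the copies of the chromosome 10 array sequence, with its 226 higher and 3 lower loci. Copies of 1 sequence are not independent, so the periodic count is not a result about the class.

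**Figure D4:**
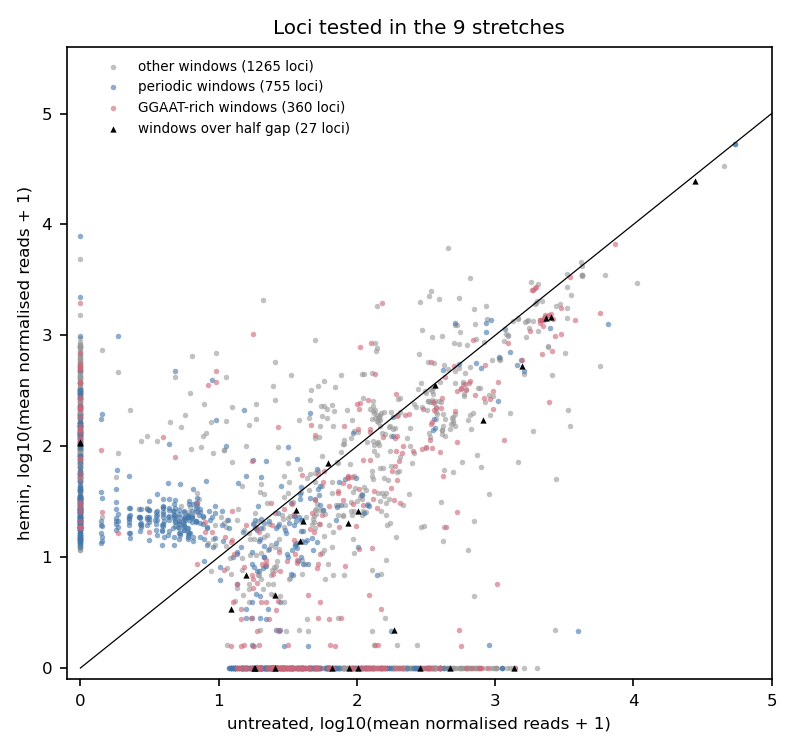
Every locus tested in the 9 stretches, with the mean normalised reads of the 2 untreated libraries on the horizontal and of the 2 hemin libraries on the vertical axis, both as log10(reads + 1), and the line of equal levels. Grey points lie in other windows, blue in periodic, red in GGAAT-rich windows and black triangles in windows made up mostly of gap; the cluster of blue points at low untreated and higher hemin levels holds chromosome 10 array loci, and points on an axis had no read in 1 group. The identical chromosome 17 pair is at the upper right on the line.

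Among the 253 loci that had reads in every library, a mean of at least 100 normalised reads, an adjusted p under 0.05 and groups that did not overlap, the highest fold changes were found on 4 chromosomes. A locus joins overlapping regions, so reads in every library need not lie on the same bases. The locus at chr9:42876634-42876686, in introns of a noncoding RNA gene and of the ankyrin repeat pseudogene ANKRD20A7P, had 2 and 1 reads before and 174 and 182 after hemin (log2 fold change 7.26 ± 0.230, edgeR adjusted p = 8.20e-06), but the 4 regions have only 3 bases in common. The locus at chr4:49197960-49198205 had 1 and 12 reads before and 523 and 580 after hemin (6.88, and 6.05 and 9.35 without untreated replicate 1 and 2), and its 4 most-read regions have no base in common. The locus at chr16:34134610-34134711, 1025 bases from the DUX4-like pseudogene DUX4L45, had 30 and 17 before and 1745 and 1755 after hemin (6.70). The locus at chr16:35778916-35779065 had 7 and 12 before and 348 and 320 after hemin (5.62), with the untreated and the hemin regions on opposite sides of an EcoRI site and 6 bases in common, so that this value compares different sequences. The locus at chr17:26948280-26948359 had 61 and 55 before and 745 and 780 after hemin (4.21). Each of these gains had both hemin libraries close to each other, which the choice by adjusted p favours, so this adds no support.

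The lowest fold changes came from chromosomes 4, 9 and 10. The locus at chr10:41857343-41857447, made up mostly of GGAAT units, had 1111 and 1358 reads before and 5 and 3 after hemin (log2 fold change -7.73 ± 0.233, edgeR adjusted p = 7.59e-06). A neighbouring pair at chr4:49168729-49168882 and chr4:49169552-49169699 had 471 and 536 against 16 and 14 reads (-4.56) and 3849 and 4212 against 190 and 163 reads (-4.01). The first of that pair has 6 bases common to its 4 regions and went the other way in the repeat-filtered regions. On chromosome 9, chr9:41220337-41220413, 1927 bases from the pseudogene FRG1HP, had 3973 and 4272 before and 145 and 106 after hemin (-4.53), and chr9:40977605-40977755 had 350 and 335 before and 14 and 16 after hemin (-4.01), again with untreated and hemin regions that share only 6 bases.

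Some strong loci rested on 1 library or 1 group, and all of those in this paragraph were singled out after their values were seen. On chromosome 5 the locus at chr5:46554039-46554151 had 3898 reads in untreated replicate 1 and none in the other libraries, and chr5:50191338-50191395 had 2762 in that library and none elsewhere. The larger chromosome 5 total of untreated replicate 1 came with these 2 loci. The locus at chr5:50278736-50278827 had 1405 and 1775 reads before and none after hemin, at least 374-fold lower. On chromosome 7 the locus at chr7:60986182-60986260 had 3101 and 3468 before and 0 and 85 after hemin (log2 fold change -5.79 ± 1.68, edgeR adjusted p = 0.0216). On chromosome 1 the locus at chr1:143264029-143264270 had 3380 and 3761 before and 1426 and 293 after hemin, and with that spread it did not pass (-1.54 ± 0.746, adjusted p = 0.103).

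Identical sequences at several places received similar counts. In untreated replicate 1 the stretches held 4686 distinct region sequences, and 625 of them stood at more than 1 locus, 3650 loci in all, with 251 of these sets on more than 1 chromosome. Of 57 sets in which every locus had at least 100 reads, 55 had a highest count under 1.5 times the lowest, with a median ratio of 1.09. A set of 4 identical loci of 81 bases on chromosome 9 had 4798 to 4928 reads each in that library and 2797 to 2881 each in hemin replicate 1, and the 3 of them fitted by name fell by 0.28 to 0.30 on the log2 scale. Their central bases have 30082 exact copies in hg38. Counts of such copies are therefore not independent of each other.

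Reads in the stretches were also tied to genes, by widening each region by 2.5 kb and keeping those that met exactly 1 annotated gene. Pericentromeres are rich in recently duplicated genes and pseudogenes, and many of these share sequence with near-identical copies, so their single values are uncertain. Of 1387 annotated genes 266 had reads and 215 were tested, of which 81 (37.7%) were higher and 97 (45.1%) lower after hemin, against 45.9% and 40.6% of 7384 genes over the genome. The median log2 fold change was -0.40 in the stretches and 0.29 over all genes. Without untreated replicate 1 or 2 the lower genes numbered 61 and 64. By annotated type, 14 of 36 tested protein-coding genes were higher and 13 lower, 24 and 26 of 64 long noncoding RNA genes, and 40 and 57 of 110 pseudogenes. Chromosome 2 was the stretch with the most higher genes, 27 of 45 against 13 lower, and chromosome 17 had 2 higher and 11 lower of 15. None of the 4 annotated genes of the chromosome 5 stretch had reads.

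LINC00273 on chromosome 16 had the most reads of any gene here, with 52363 and 55218 before and 27733 and 29142 after hemin (log2 fold change -0.42 ± 0.0140, edgeR adjusted p = 0.000647). Nearly all of them came from the locus beside it that resembles the rDNA spacer of the viewpoint. The pseudogene ENSG00000282924, also on chromosome 16, had 14422 and 15784 before and 4064 and 4338 after hemin (-1.35 ± 0.0391, adjusted p = 0.000647), and on chromosome 10 SLC9B1P3, a pseudogene of a sodium-proton exchanger, had 6128 and 6586 before and 2373 and 2283 after hemin (-0.95 ± 0.0560, adjusted p = 0.000828). On chromosome 9 the noncoding RNA gene FLJ43315 had 10376 and 10647 before and 5961 and 6508 after hemin (-0.26 ± 0.0399, adjusted p = 0.0081). The direction of ENSG00000282924 and FLJ43315 turned when only regions with 1 exact copy were used.

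Among the ankyrin repeat genes named ANKRD36 on chromosome 2, 2 rose and the other two did not pass. ANKRD36B had 3039 and 2823 reads before and 2817 and 3076 after hemin, a rise after normalisation (log2 fold change 0.50 ± 0.0829, edgeR adjusted p = 0.00932) that no longer passed without hemin replicate 2 (adjusted p = 0.0568). ANKRD36 had 5868 and 7203 before and 5176 and 5690 after hemin and did not pass (0.23 ± 0.101, adjusted p = 0.106; 0.0278 without untreated replicate 2), nor did ANKRD36C with 2525 and 2651 before and 1758 and 1793 after hemin (-0.04, adjusted p = 0.396). Another chromosome 2 member, ANKRD36BP2, had 311 and 376 before and 1655 and 1683 after hemin (2.78 ± 0.103, adjusted p = 0.000647). Of the 18 genes with ANKRD symbols in the stretches 8 were tested, 4 of them higher and 2 lower, the latter including ANKRD20A1 on chromosome 9 with 303 and 259 before and 28 and 31 after hemin (-2.75). Over all genes the shares were 45.9% higher and 40.6% lower, so the counts of this family stand near the background.

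The other gene lists were small. Of 30 genes with LINC symbols 8 were tested, with 4 higher (LINC01145, LINC00342, LINC02848 and LINC01410) and LINC00273 lower, against 45.9% higher and 40.6% lower of all genes tested; the share of higher genes is near that background. Of 103 immunoglobulin kappa genes and pseudogenes 3 were tested, with 2 higher and 1 lower and at most 362 reads in a library. Of 16 ZNF genes, which code for zinc finger proteins, only ZNF33B on chromosome 10 was tested, with 633 and 196 reads before and none after hemin, at least 98.9-fold lower. Of 3 NBPF genes 2 were tested and 1 was lower, NBPF20 with 192 and 206 reads before and none after hemin. None of 5 SPATA31 genes had reads.

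The highest fold changes of genes present in every library were those of DUX4L45, with 42 and 17 reads before and 1745 and 1755 after hemin (log2 fold change 6.37, and 5.83 to 7.22 without each library in turn), of the prostaglandin receptor pseudogene PTGER4P2, with 26 and 1 before and 591 and 611 after hemin (5.94, with 9.57 and 4.97 without untreated replicate 1 and 2), of ENSG00000197550 (5.17), of FAM27C (4.85) and of SRGAP2B, a partial copy of a gene for a regulator of neuronal migration, with 57 and 49 before and 425 and 483 after hemin (3.59). The lowest were those of FRG1HP, with 3973 and 4272 before and 179 and 134 after hemin (-4.21), of ENSG00000275649 (-3.59), ANKRD20A1 (-2.75), ENSG00000283659 (-2.73) and ENSG00000236252 (-2.51). The PTGER4P2 call was lost without hemin replicate 1 or 2 (edgeR adjusted p = 0.0979 and 0.0932). GTF2IP6 on chromosome 17 shows the part that 1 region can play, with 3465 and 15917 reads before and 1810 and 1517 after hemin, since 12269 of the reads of untreated replicate 2 came from a single region, and it did not pass (-2.02 ± 0.847, edgeR adjusted p = 0.101). Without untreated replicate 1 it passed (-2.70, adjusted p = 0.0124), and without untreated replicate 2 its log2 fold change was -0.60.

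Sequence similarity to the surroundings of the most-read chromosome 21 region, where the viewpoint's rDNA lies, was rarer among the loci than elsewhere. Matching loci held a somewhat larger part of the reads than elsewhere, but most of these reads lay in 1 locus. By blastn with matches of at least 50 bases, 85 of 14969 loci in the stretches (0.568%) matched the sequence within 50 kb of that region, against 4.27% elsewhere. These loci held 10.9% and 10.3% of the stretches' reads before and 9.55% and 9.45% after hemin. Elsewhere the matching loci held 8.83% and 8.72% of the reads before and 6.90% and 7.16% after it. The locus beside LINC00273 alone had 52328 of the 822521 member reads in untreated replicate 1. In hemin replicate 1 it had 27725 of 459179. Shares without this locus were not calculated, so the larger part is not that of matching loci in general. On chromosome 16 the matching loci of the stretch held 45.0% and 42.3% before and 38.5% and 38.5% after hemin, mostly through the locus beside LINC00273. Those of the chromosome 9 stretch held 15.9% and 16.3% before and 14.9% and 13.96% after it. The chromosome 5 stretch had none. What part this similarity has in the differences was not tested.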

How the data were processed

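4C with an rDNA viewpoint was performed on 2 untreated and 2 hemin-treated K562 libraries. Per the study's methods and the submitters' processing notes, the authors trimmed reads with cutadapt 3.5, kept read pairs, aligned them to hg38 with BWA 0.7.17-r1188 and filtered them with SAMtools 1.14. The deposited library files hold the count of reads per contact region, and no removal of duplicates is stated. The deposited group files hold a pooled signal per region after repeat filtering (bedtools 2.29.1); only their positions were used. PCR duplicates cannot be told from molecules, so counting intervals are not given.

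Reads were summed by region midpoint over stretches and 100 kb bins, over loci and over GENCODE release 44 genes. Counts were tested with edgeR 4.0.16 (R 4.3.3), glmQLFit after filterByExpr, with treatment as the only term and Benjamini-Hochberg adjustment over the whole genome. DESeq2 1.42.0 with a local trend, the study's tool, was an alternative. Shares were compared by two-sided exact permutation tests. The fits were checked on simulated counts. Fold bounds use a floor of 3 reads per library. Named loci and genes are those with the highest mean per stretch (1 locus, 2 genes) and the 5 highest and 5 lowest fold changes among features called with reads in every library, a mean of at least 100 and groups that did not overlap; others are marked where named. Members, lists and the choice of test were made with earlier results of these data known. The leading loci of the chromosome 4 and chromosome 9 stretches are not reported here.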

Additional observations from a re-analysis of the deposited data

How the results depend on the processing

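With 2 libraries per group, several results moved with the processing, and the causes were not tested except where the setting itself removes data. The share of reads in the stretches was lower after hemin in every setting, by 1.138 (-1.138) percentage points of the reads outside the acrocentric chromosomes, with values of -0.21 over all reads, -0.742 outside chromosome 21, -8.22 with each region counted once, -1.41 in repeat-filtered regions, -1.05 in regions with 1 exact copy, -0.584 with 1 Mb trimmed from each end, and -1.21 to -1.07 without each library in turn. The share of regions was lower by 8.22 points, and by 7.30 (-7.30) at equal depth, an alternative chosen after seeing the data. The number of stretches called higher, 0 in the report, was 1 with DESeq2, median-of-ratios scaling and total reads, and 3 in repeat-filtered regions; at an unadjusted p under 0.05 edgeR's main fit also gave 0. The number called lower, 6 in the report, was 2 in regions with 1 exact copy and 4 to 7 without each library in turn.

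The replicate numbers carry no stated pairing, and deviations of same-numbered libraries correlated at -0.023 over 5077 bins. With the replicate block, which leaves 1 residual degree of freedom, 0 stretches, 0 bins and 0 loci were called in either direction, and 5 genes were higher and 8 lower; the chromosome 4 stretch then had a log2 fold change of -1.12.

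Bins higher and lower in the report became 0 and 77 with each region counted once, 69 and 77 in regions with 1 exact copy, 245 and 304 with 50 kb bins, and 98 to 149 and 109 to 196 without each library in turn. Loci higher and lower were 875 and 1150, and became 147 and 218 in regions with 1 exact copy, with 764 lower in repeat-filtered regions, and 521 to 691 and 457 to 1175 without each library. Loci whose higher group held libraries within 2-fold of each other numbered 842 and 1125, and without the most repeated sequences 636 and 993, both chosen after seeing the data. Genes higher and lower were 81 and 97, and became 0 and 4 with each region counted once, 35 and 37 in regions with 1 exact copy, 149 and 153 when every gene met was credited, and 63 to 80 and 61 to 95 without each library. The loci could not be fitted with each region counted once, as too few passed the filter.

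Directions that turned were these, as log2 fold changes. In regions with 1 exact copy they were 0.131 for chromosome 1, 0.344 for chromosome 2, 0.271 for chromosome 7, 0.00286 for chromosome 9, 3.30 for FLJ43315 and 4.76 for ENSG00000282924. In repeat-filtered regions they were 0.210 for chromosome 2, 0.180 for chromosome 7, 0.0559 for chromosome 9, 0.0955 for chromosome 10, 0.0840 for chromosome 17, -0.235 for KMT2CP3, 0.372 for FLJ43315, 0.128 for the leading chromosome 2 locus, 7.27 for the locus at chr4:49168729-49168882 and 0.0962 for the leading chromosome 17 locus. With DESeq2 and with median-of-ratios scaling alike they were 0.0841 for chromosome 2, 0.0147 for chromosome 9, 0.106 for the chromosome 2 locus and 0.0744 for the chromosome 17 locus. With total reads they were 0.188, 0.0364, 0.119 and 0.0463 for chromosomes 2, 7, 9 and 17, 0.0443 for the leading chromosome 1 locus, 0.210 for that of chromosome 2 and 0.178 for that of chromosome 17. Counting each region once gave -0.431 for ANKRD36, -0.347 for ANKRD36B, 0.494 for ENSG00000282924 and -1.24 for ENSG00000285822, crediting every gene gave -0.202 for DUX4L45, and trimming gave 0.758 for chromosome 17, whose leading pair lies in the removed end. Without each library in turn the chromosome 2 stretch ranged from -0.061 to 0.0128 and its leading locus from -0.0340 to 0.0343. The stretches of chromosomes 4, 5 and 16 were lower in every setting run, but not all of these values passed. In regions with 1 exact copy chromosome 16 had a log2 fold change of -0.614 (edgeR adjusted p = 0.364).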
